A study of Mus musculus with 13 samples.

Results

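The genes described here are 37 fibroblast and extracellular matrix genes, chosen by symbol from the 55536 genes of the broader deposited count table, and all 37 were found in it. They comprise 6 fibrillar collagen chains, 3 chains of collagen VI, 4 small proteoglycans and collagen-binding proteins, 7 genes of elastic fibres and crosslinking, 9 adhesive and matricellular glycoproteins, 2 matrix inhibitors, 2 receptors, 2 transcription factors and 2 cytoskeletal genes. All 37 were among the 16125 genes with enough counts to be tested.

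The study sequenced 13 libraries of RNA from sorted ventricular nuclei of C57BL/6J mice, an inbred strain. All pups, male and female, were injected once into the peritoneum at postnatal day 1 with adeno-associated virus of serotype 6, and ventricles were taken at postnatal day 56. The control groups received a vector without insert, in 4 libraries from females (Con_F 1 to 4) and 3 from males (Con_M 1 to 3), and the PGR groups a vector carrying human progesterone receptor, the nuclear receptor through which the hormone progesterone acts on genes, in 3 libraries from females (PGR_F 1, 2 and 4) and 3 from males (PGR_M 1 to 3). Nuclei were sorted for Pcm1, a protein that marks cardiomyocyte nuclei, and each library pooled 3 to 6 whole ventricles, so that values are averages over animals. Which promoter drove the insert is not stated in the labels.

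Cardiac fibroblasts are the mesenchymal cells that lie between cardiomyocytes and make most of the collagen of the ventricle wall. They are recognised by the growth factor receptor Pdgfra, the transcription factor Tcf21, the collagen receptor Ddr2 and abundant collagen and proteoglycan transcripts. Cardiomyocyte nuclei are not expected to be rich in these transcripts. In a Pcm1 sort most of these genes are therefore read here as a measure of other nuclei that pass the gate. Smoc2, Fbln1, Timp3 and Col5a1, which varied little between libraries, and Col11a2, which departed from the others, are not read so. Which nuclei their transcripts came from was not tested. In pooled nuclei, fewer fibroblast nuclei and less RNA per nucleus cannot be told apart.

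The upstream sequences of 3 members are shown because the results turn on them: Col3a1 and Pdgfra followed the pattern that most members shared across libraries, whereas Col11a2 did not. Each run is the 250 bases before the RefSeq start (GRCm38.p6), read 5′ to 3′ on the gene's strand, which is the plus strand for all 3. Capitals mark matches, read on either strand, to the letters of 4 motifs: the TATA box TATAAA, the CCAAT box, the GC box with letters GGGCGG, and the half-site bound by progesterone and glucocorticoid receptors, with letters TGTTCT.
Col3a1, chr1:45311288-45311537: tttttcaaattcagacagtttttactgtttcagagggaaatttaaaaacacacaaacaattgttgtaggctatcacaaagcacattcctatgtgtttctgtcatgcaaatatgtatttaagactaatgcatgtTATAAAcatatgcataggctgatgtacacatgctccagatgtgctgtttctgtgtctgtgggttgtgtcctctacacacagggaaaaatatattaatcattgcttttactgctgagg
Pdgfra, chr5:75152001-75152250: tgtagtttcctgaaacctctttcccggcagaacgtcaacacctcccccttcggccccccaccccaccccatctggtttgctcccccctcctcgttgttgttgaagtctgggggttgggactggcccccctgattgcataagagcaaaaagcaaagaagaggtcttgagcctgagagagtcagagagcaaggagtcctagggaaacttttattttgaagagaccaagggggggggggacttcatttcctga
Col11a2, chr17:34038888-34039137: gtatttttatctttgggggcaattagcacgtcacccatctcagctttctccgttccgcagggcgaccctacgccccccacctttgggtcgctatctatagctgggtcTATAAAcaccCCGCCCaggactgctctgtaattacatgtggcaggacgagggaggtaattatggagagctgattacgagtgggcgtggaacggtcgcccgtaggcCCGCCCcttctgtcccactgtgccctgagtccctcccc
The Col3a1 window held TATAAA, beginning 117 bases before the start. The Col11a2 window held TATAAA beginning 143 bases before it and GGGCGG letters beginning 133 and 38 bases before it, and the Pdgfra window held none of the 4 motifs. RefSeq windows were matched for 22 of the 37 genes, as 28 windows. Windows of the same gene can overlap, as those of Tnc do, so the same letters can be counted more than once. TGTTCT letters occurred in 3 of these 28 windows (10.7%), those of Bgn, Fbln1 and Sparc, against 16.1% of 32851 windows of all genes. TATAAA occurred in 28.6% of the member windows against 12.4% of all, CCAAT in 17.9% against 33.85%, and GGGCGG in 53.6% against 32.7%. These are counts of letters and show neither a bound site nor the absence of one.

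Total counts ranged from 31.8 to 86.3 M per library. Pcm1 itself was at 103 to 139 CPM (a count scaled to the library's total, with TMM factors between libraries). The mouse Pgr gene had 1 count in each Con_F library, 0 to 1 in Con_M, 1 to 6 in PGR_F and 0 to 8 in PGR_M. Whether any of these reads came from the human insert was not tested. Transcripts of the human insert were not analysed here. The 14 cardiomyocyte markers, led by Ttn, Ryr2 and Myh6, summed to 82328 to 101860 CPM, a 1.24-fold range. Markers of other cell types were present at low levels in every library, with 0 of the 14 endothelial and 0 of the 12 macrophage markers at 0 in any library. Of the 6 epicardial markers 4, and of the 4 adipocyte markers 3, were at 0 in at least 1 library. The fibroblast-defining genes Pdgfra, Tcf21 and Ddr2 were detected in every library. Con_M 2 and PGR_M 1 stood apart by low levels of most of the 37 genes, so results that rest on them are also given without them, a choice made after the data were seen.

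Together the 37 genes took 0.0195% to 0.0478% of all counts. Reads were counted over whole gene intervals, introns included, so levels are given as CPM per kb of interval. Exons made up from 5.42% of the interval (Fbln1) to 81.2% (Tcf21). The scale per kb does not correct for this exonic share, whose part in the order of the genes was not tested. On that scale Mgp, a small protein that restrains calcification of the matrix, was first with 0.918 CPM per kb averaged over the 13 libraries. It was followed by Col1a1, the alpha1 chain of type I collagen, with 0.843, by Gsn (gelsolin, an actin-severing protein) with 0.834, by Vim (vimentin, a filament protein of mesenchymal cells) with 0.798 and by the proteoglycan Bgn with 0.759. The coefficients of variation of these 5 genes across libraries were 33.1% to 47.9%, and the differences between them were not tested. Type III collagen (Col3a1) and the collagen-binding protein Sparc came next, with 0.476 and 0.487 CPM per kb. Col1a2 reached 0.299 and Dcn, decorin, a proteoglycan that binds collagen fibrils, 0.2997. The chains of collagen VI, a beaded-filament collagen around cells, were at 0.289 (Col6a1), 0.214 (Col6a2) and 0.0972 (Col6a3). Lum was at 0.290 and Dpt at 0.0929, and the remaining fibrillar chains were at 0.196 (Col11a2), 0.132 (Col5a1) and 0.0438 (Col5a2). Of the elastic fibre genes, Fbln1 was highest at 0.426, followed by Mfap4 at 0.236, the lysyl oxidase relative Loxl1 at 0.180, Eln (elastin) at 0.141, Fbln2 at 0.104 and Mfap5 at 0.0672. Of the glycoproteins, Smoc2 was at 0.369, the thrombospondins Thbs1 and Thbs2 at 0.192 and 0.0752, Fstl1 at 0.150, Comp at 0.116, Postn (periostin) at 0.0897 and Fn1 (fibronectin) at 0.0895, and the protease inhibitor Timp3 was at 0.408. Among the receptors and transcription factors, Meox1 was at 0.0583 CPM per kb. The receptor Pdgfra was at 0.117, Tcf21 at 0.0841 and Ddr2 at 0.0369. Lowest were the crosslinking enzyme Lox with 0.0136 and the matricellular protein Tnc (tenascin-C) with 0.00336. Tcf21, Lox and Tnc rested on few reads, with 4 to 29, 1 to 15 and 3 to 23 counts per library.

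The members varied far more between libraries than most genes. The fold of the highest over the lowest library had a median of 3.74 over the 37 members, from 1.48 for Smoc2 to 9.15 for Lox, against a median of 1.63 over the 16066 tested genes with a count in every library. Con_M 2 was the lowest library for 24 of the 37 members and PGR_M 1 for 8, and each was among the 4 lowest libraries for 34. PGR_F 2 was the highest for 17 members and Con_F 3 for 10. Relative to each member's median over the libraries, the median member stood at 46.9% in Con_M 2 and 51.5% in PGR_M 1, at 78.6% in PGR_F 1, and at 144% in PGR_F 2. These 3 low libraries had 36.2, 57.9 and 31.8 M counts, and the part of depth in their low levels was not tested.

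**Figure D1:**
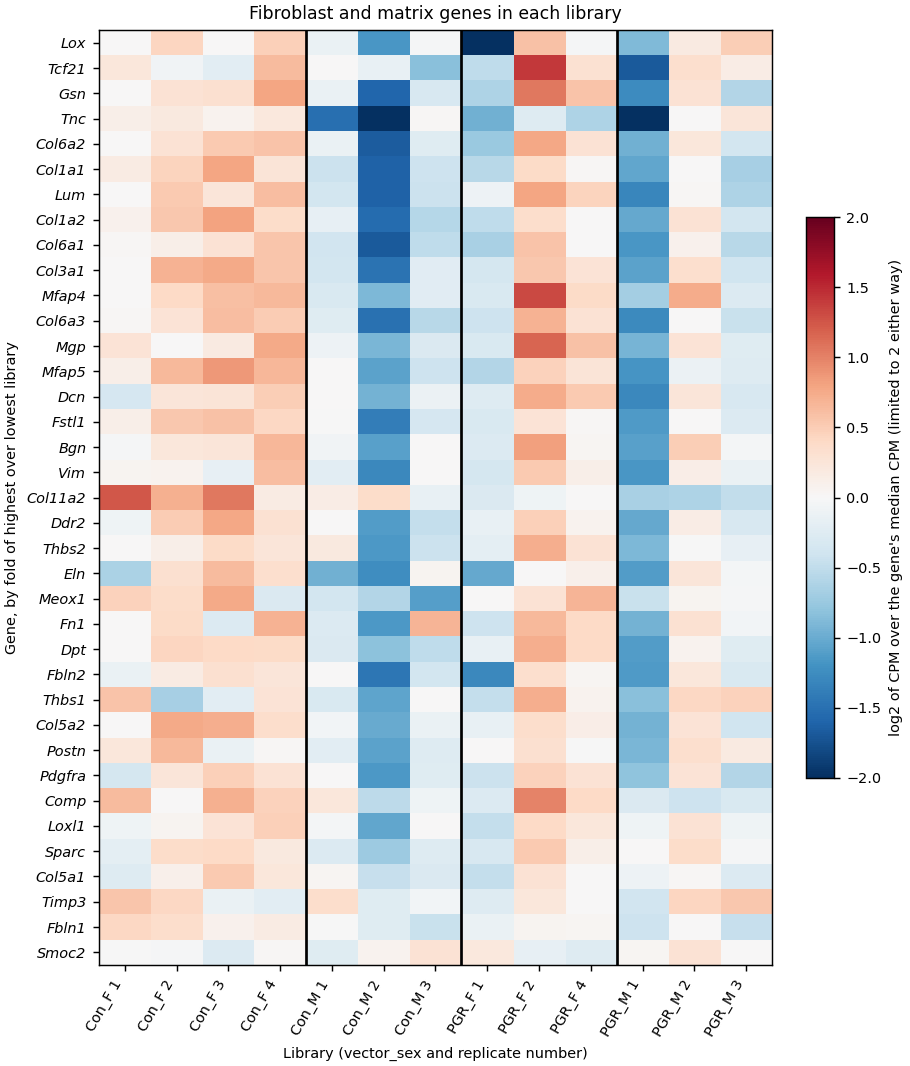
Level of each of the 37 genes (rows, by fold of highest over lowest library) in each of the 13 libraries (columns), as log2 of its CPM over its median CPM across libraries. Con_M 2 and PGR_M 1 are blue for most genes and PGR_F 2 is red for most, while Smoc2 and Fbln1 at the bottom vary little and Col11a2 is below the control libraries of the same sex in every PGR library.

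Summed over the members, the 4 Con_F libraries had 357, 416, 423 and 433 CPM (mean 407 ± 34.1, SD, n = 4) and the 3 Con_M libraries 310.0, 200.4 and 300.1 CPM (270.2 ± 60.6, n = 3). The PGR_F libraries 1, 2 and 4 had 274, 462 and 374 CPM (370.0 ± 94.3, n = 3), and the PGR_M libraries had 218, 389.7 and 288 CPM (298 ± 86.5, n = 3). The control sexes did not overlap, while the sexes under the PGR vector overlapped, as did the vectors within each sex. The 14 endothelial markers, summed, were likewise lowest in Con_M 2 and PGR_M 1 and highest in PGR_F 2. Con_F had 83.1, 101, 97.7 and 99.4 CPM, Con_M 79.2, 40.6 and 56.5, PGR_F 57.0, 107 and 87.7, and PGR_M 46.3, 87.6 and 77.6. The macrophage markers ranged from 19.6 to 37.4 CPM, with Con_M 2 and PGR_M 1 again lowest. Other lists did not share this order. The 5 erythroid markers were lowest in Con_F 2, at 2.80 CPM, with 6.27 CPM in Con_M 2 and 5.29 in PGR_M 1. The 5 Schwann cell markers were lowest in Con_M 1, at 7.11 CPM, and highest in PGR_F 4, at 10.9. The 10 markers of smooth muscle and pericytes ranged 1.20-fold, from 301 to 360 CPM, but 255 to 320 CPM of this came from Abcc9, which cardiomyocytes also express. Without Abcc9 they summed to 32.1 to 53.7 CPM, with Con_M 2 lowest and PGR_F 2 highest. Adipocyte markers were near 0, at 0.0570 to 0.723 CPM in sum. The part of these other cell types in the sex and vector differences of the members was not tested.

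**Figure D2:**
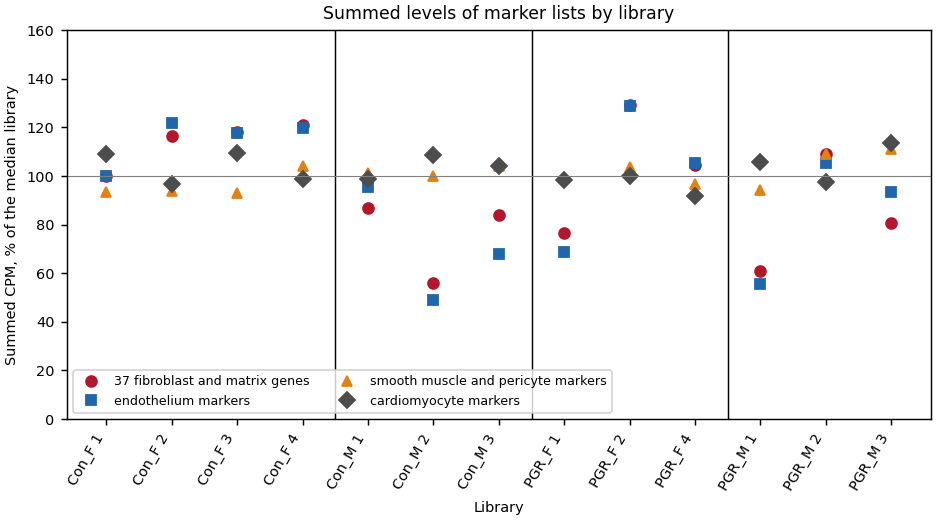
Summed CPM of 4 gene lists in each library, as a percentage of the list's median library. The 37 genes and the endothelial markers are low together in Con_M 2, PGR_F 1 and PGR_M 1 and high together in PGR_F 2, while the cardiomyocyte markers range only 1.24-fold.

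A set of 8 gene pairs was correlated across the 13 libraries on log2 CPM, with permutation p-values adjusted over the 8 pairs. The 2 chains of type I collagen, Col1a1 and Col1a2, had Pearson r = 0.98 (adjusted permutation p = 2.67e-05) and Spearman rho = 0.94 (adjusted permutation p = 5.33e-05). Col1a1 and Col3a1 had r = 0.98 and rho = 0.97 (adjusted permutation p = 2.67e-05 and 4e-05). Col6a1 and Col6a2, neighbouring genes that encode chains of the same beaded filament, had r = 0.98 and rho = 0.98 (adjusted permutation p = 2.67e-05 and 4e-05). The raw p of these 3 values of r was 1e-05, the smallest that 100000 resamples can give. Dcn and Lum, both small leucine-rich proteoglycans, had r = 0.93 and rho = 0.88 (adjusted permutation p = 0.00012 and 0.00038). The libraries farthest from the median of the first gene were Con_M 2 and PGR_M 1 in all 8 pairs, and without them these 4 values of r were 0.95, 0.94, 0.96 and 0.85.

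Pdgfra and Tcf21, the defining receptor and transcription factor of cardiac fibroblasts, had r = 0.57 and rho = 0.54 (adjusted permutation p = 0.0509 and 0.0778), and r = 0.49 without Con_M 2 and PGR_M 1. Tcf21 had at most 29 counts in a library. Dcn and the endothelial gene Pecam1 had r = 0.80 and rho = 0.66 (adjusted permutation p = 0.00147 and 0.0281). Without Con_M 2 and PGR_M 1 their r was 0.58 over the 11 libraries left (adjusted permutation p = 0.104). On deviations from the group means over all 13 libraries their r was 0.86 (adjusted permutation p = 0.00064). Dcn followed neither the sorted marker Pcm1 (r = -0.03, rho = -0.11, adjusted permutation p = 0.935 and 0.722) nor the cardiomyocyte myosin Myh6 (r = -0.25, rho = -0.24, adjusted permutation p = 0.467 and 0.487).

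**Figure D3:**
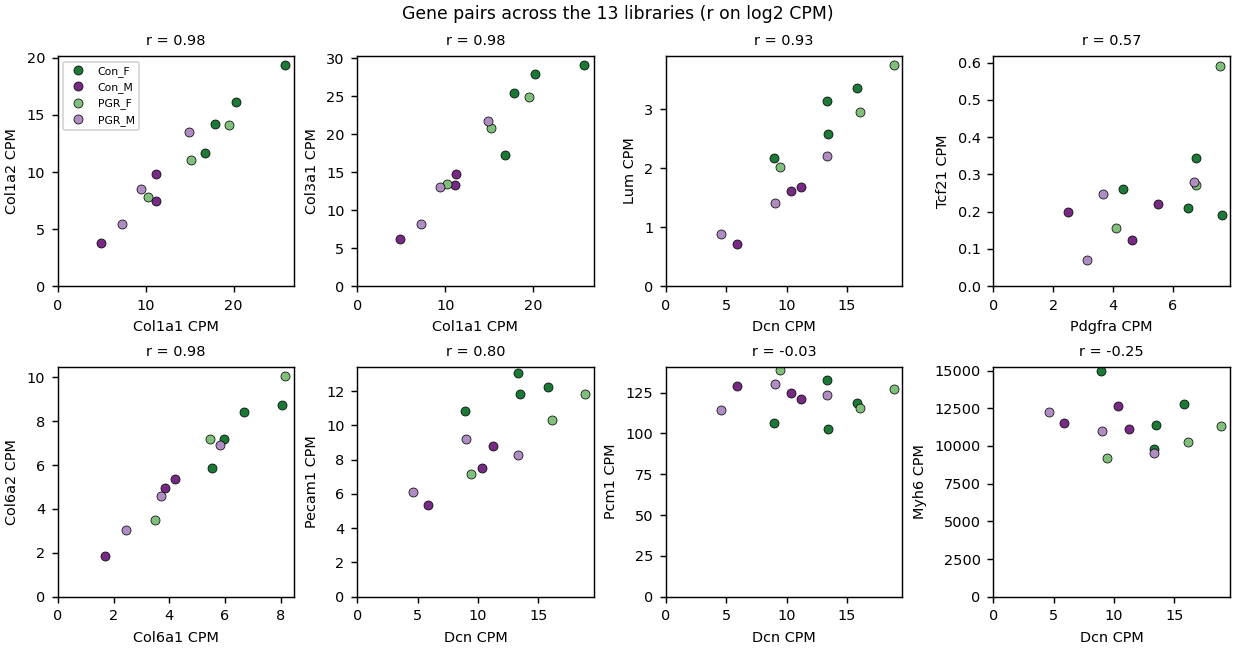
CPM of the 8 gene pairs in the 13 libraries, coloured by group, with Pearson r on log2 CPM above each panel. The collagen pairs and Dcn with Lum lie along a line through all 4 groups, whereas Dcn shows no line with Pcm1 or Myh6.

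Between females and males under the control vector, the fibroblast and matrix genes were higher in females almost throughout, although 0 of the 37 passed an adjusted p of 0.05. The log2 fold change of female over male was above 0 for 36 of 37 members with a median of 0.70, against 49.96% of all tested genes above 0 with a median of -0.00014. With edgeR, 0 members passed the adjusted threshold, which 0.229% of all tested genes passed, and limma-voom called 0. DESeq2 called 2 members, Fbln1 and Col11a2, among 224 genes over all, where edgeR called 37 genes. At an unadjusted p under 0.05, 18 members were higher and 0 lower, beside 7.36% and 5.07% of all tested genes. The 4 female and 3 male libraries did not overlap for 20 members, all higher in females, beside 6.41% of all tested genes, and for 0 members lower in females, beside 4.94%. Most members rose and fell together across libraries, so the counts of members, here and in the comparisons below, are not independent observations. The within-group SD of the members' mean log2 CPM was 0.43. Without the low library Con_M 2 the median was 0.51, with 35 of 37 above 0, 10 at an unadjusted p under 0.05 (3.69% of all tested genes higher) and 21 not overlapping (7.85%). Without Con_F 1, 28 members did not overlap (9.5% of all tested genes). Of the endothelial markers, 14 of 14 were above 0 with a median of 0.69, 10 of them at an unadjusted p under 0.05, and of the cardiomyocyte markers 8 of 14, with a median of 0.01.

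Of the role groups, the collagens had the largest medians, 0.96 over the 6 fibrillar chains and 0.99 over the 3 chains of collagen VI. Col1a1 (ENSMUSG00000001506, chromosome 11, 94936224 to 94953042, plus strand, in the deposited annotation) had 16.7, 20.2, 25.8 and 17.8 CPM in Con_F and 11.1, 4.87 and 11.2 in Con_M, without overlap, a log2 fold change of 1.14 (SE 0.34, adjusted p = 0.233). Col3a1 had 17.2, 27.9, 29.1 and 25.4 CPM in Con_F and 13.3, 6.15 and 14.7 in Con_M, a log2 fold change of 1.12 (SE 0.39, adjusted p = 0.294). In both genes the lowest female library, Con_F 1, was still above the highest male one. Col1a2, the partner chain of Col1a1, differed by 1.10 (SE 0.37, adjusted p = 0.275), and Col5a2, a chain of the type V collagen that starts fibrils, by 0.82 (SE 0.30, adjusted p = 0.298). For the collagen VI chains the log2 fold change was 0.99 for Col6a1 (adjusted p = 0.305) and 1.01 for Col6a3 (adjusted p = 0.296), and the female and male libraries did not overlap in any of the 3 chains.

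Of the small proteoglycans and collagen-binding proteins, Lum (lumican) had 2.18, 3.15, 2.58 and 3.36 CPM in Con_F and 1.69, 0.712 and 1.62 in Con_M, a log2 fold change of 1.03 (SE 0.33, adjusted p = 0.240). Dpt, dermatopontin, which speeds collagen fibril formation, differed by 0.81 (SE 0.26, adjusted p = 0.232), and its interval overlaps Gm32569 on the opposite strand. Dcn differed less, with 8.92, 13.3, 13.4 and 15.8 CPM in Con_F and 11.2, 5.84 and 10.3 in Con_M, and the groups overlapped (log2 fold change 0.48, SE 0.37, adjusted p = 0.640). The ratio of Col1a1 to Dcn was 1.88, 1.52, 1.92 and 1.13 in Con_F and 0.992, 0.834 and 1.08 in Con_M, so every Con_F library was above every Con_M library, with Con_F 4 close to them. In the other groups this ratio was 0.944 to 1.08 in PGR_F and 1.05 to 1.58 in PGR_M. The ratio of Col1a1 to Pdgfra, 2.64 to 3.86 in Con_F and 1.97 to 2.41 in Con_M, did not overlap either. Dcn to Pdgfra did overlap, at 1.76 to 2.34 in Con_F and 2.04 to 2.36 in Con_M, as did Eln to Pdgfra and Col1a1 to Col1a2. The ratios were not tested.

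Among elastic fibre genes, Fbln1 (fibulin-1, a glycoprotein of elastic fibres and basement membranes) had the smallest adjusted p of the 37. It had 46.2, 44.2, 37.01 and 38.9 CPM in Con_F and 34.7, 29.3 and 25.6 in Con_M, a log2 fold change of 0.48 (SE 0.13, adjusted p = 0.160), and DESeq2 called it with an adjusted p of 0.0394. The microfibril proteins Mfap5 and Mfap4 differed by 0.97 (adjusted p = 0.232) and 0.85 (adjusted p = 0.400). Eln, elastin itself, reached 4.49 to 10.7 CPM in Con_F and 2.93 to 7.22 in Con_M, and the groups overlapped.

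Of the matricellular glycoproteins, Sparc differed by 0.61 (SE 0.20, adjusted p = 0.256), Postn (periostin) by 0.66 (adjusted p = 0.370), Fstl1 by 0.88 (adjusted p = 0.295) and Tnc by 1.17 (SE 0.51, adjusted p = 0.370). Smoc2, a calcium-binding matricellular protein, was the 1 member not above 0, at -0.12 (SE 0.13), with 37.9 to 46.7 CPM in Con_F and 39.0 to 56.0 in Con_M. Of the regulators, the homeobox factor Meox1 had 1.28, 1.21, 1.58 and 0.767 CPM in Con_F and 0.722, 0.627 and 0.436 in Con_M, without overlap, a log2 fold change of 0.98 (SE 0.27, adjusted p = 0.171). Ddr2 differed by 0.84 (SE 0.31, adjusted p = 0.298). Pdgfra had 4.33, 6.51, 7.63 and 6.77 CPM in Con_F and 5.51, 2.48 and 4.64 in Con_M, and overlapped (0.56, SE 0.33, adjusted p = 0.519). Tcf21 overlapped as well, at 0.191 to 0.344 CPM in Con_F and 0.124 to 0.221 in Con_M (0.39, SE 0.50, adjusted p = 0.798). Without Con_M 2 the difference was 0.85 for Col1a1, 0.83 for Col3a1, 0.25 for Dcn and 0.30 for Pdgfra, and without Con_F 4 it was 0.22 for Tcf21, the lowest values with 1 library left out. Without Con_M 1 the highest of Tcf21 was 0.61.

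**Figure D4:**
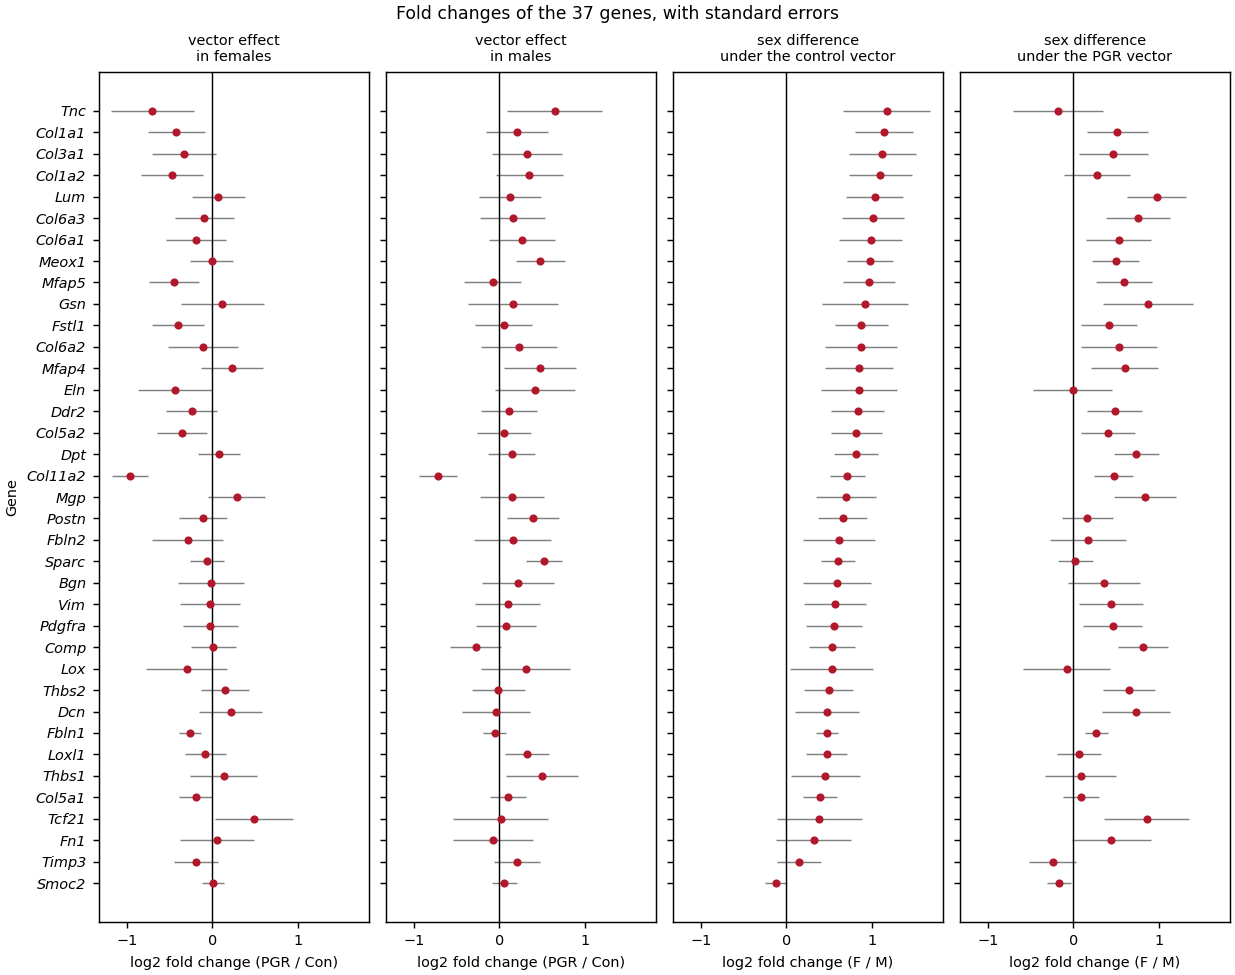
Log2 fold change of each of the 37 genes with its standard error in the 4 comparisons of 2 groups, ordered by the sex difference under the control vector. In the third panel 36 of 37 points lie above 0, and Col11a2 lies below 0 in both vector panels.

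Under the PGR vector the sex difference had the same direction for most members but was called for none. The log2 fold change of female over male was above 0 for 32 of 37 members with a median of 0.46, against 53.1% of all tested genes. With edgeR 0 members passed the adjusted threshold, beside 0.143% of all tested genes, and DESeq2 and limma-voom also called 0. At an unadjusted p under 0.05, 4 members were higher (4.11% of all tested genes) and 0 lower (3.14%). These were Lum (0.98, SE 0.34, adjusted p = 0.536), Dpt (0.74, SE 0.27, adjusted p = 0.545), the pentameric matrix protein Comp (0.82, SE 0.29, adjusted p = 0.536) and Mgp (0.84, SE 0.36, adjusted p = 0.665). The groups did not overlap for 2 members higher in females, Col11a2 and Comp (7.31% of all tested genes), and for 0 lower (6.41%). Comp had 0.717, 1.71 and 1.14 CPM in PGR_F 1, 2 and 4 and 0.708, 0.645 and 0.698 in PGR_M, so the lowest female library was just above the males. The spread within each sex was wide. The median was 0.20 without PGR_M 1, with 28 members above 0. Without PGR_F 2 it was 0.22 (26 above 0, 0 higher at an unadjusted p under 0.05, beside 3.31% of all tested genes). Without PGR_M 2 it was 0.75 (34 above 0, 17 higher at an unadjusted p under 0.05, beside 4.03% of all tested genes). The median was 0.20 with 27 above 0 without Con_M 2 and PGR_M 1 together. Without PGR_F 1, 17 members higher in females did not overlap (14.3% of all tested genes), and without PGR_M 2, 13 (11.6%). The endothelial markers had 10 of 14 above 0 with a median of 0.25.

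The named fibroblast genes overlapped between the sexes under this vector. Col1a1 had 10.2, 19.5 and 15.2 CPM in PGR_F 1, 2 and 4 and 7.27, 14.9 and 9.44 in PGR_M (log2 fold change 0.51, SE 0.36, adjusted p = 0.853). Col3a1 had 13.4, 24.9 and 20.8 CPM in PGR_F and 8.22, 21.8 and 13.1 in PGR_M (0.47, SE 0.40, adjusted p = 0.896). Dcn had 9.42, 18.9 and 16.1 CPM in PGR_F and 4.59, 13.3 and 8.99 in PGR_M (0.73, SE 0.40, adjusted p = 0.783). In all 3 genes PGR_F 1 was lower than PGR_M 2. Pdgfra differed by 0.46 (SE 0.35, adjusted p = 0.865) and Tcf21 by 0.86 (SE 0.50, adjusted p = 0.806). With 1 library left out these values moved widely. Without PGR_M 2 they were highest, at 0.84 for Col1a1, 0.89 for Col3a1, 1.13 for Dcn, 0.85 for Pdgfra and 1.18 for Tcf21. They were lowest without PGR_M 1 for Col3a1 (0.18), Dcn (0.42) and Pdgfra (0.26), and without PGR_F 2 for Col1a1 (0.28) and Tcf21 (0.22).

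**Figure D5:**
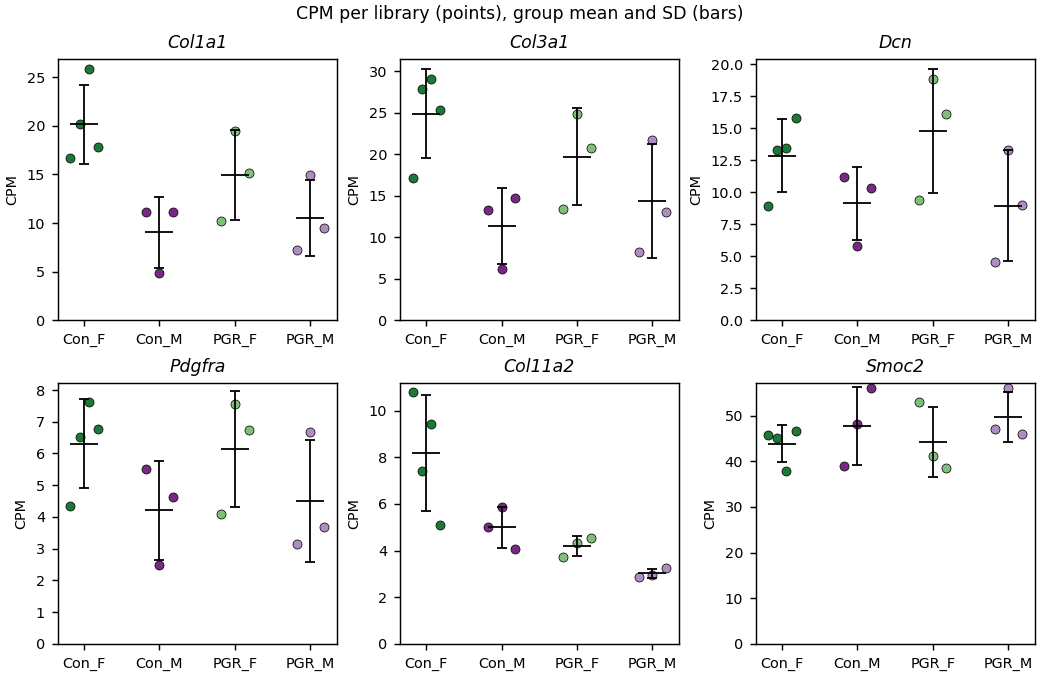
CPM of 6 genes in each library by group (points), with the group mean and SD. Con_F lies above Con_M for Col1a1 and Col3a1, Dcn and Pdgfra overlap, Col11a2 is lower in each PGR group than in the control group of its sex, and the Smoc2 groups overlap throughout.

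The PGR vector was compared with the control vector within each sex, which asks how the genes differ once the receptor is introduced. In females the log2 fold change of PGR over control was above 0 for 12 of 37 members, with a median of -0.10, against 50.7% of all tested genes. With edgeR 0 members and 0% of all tested genes passed the adjusted threshold, and limma-voom called 0 members. DESeq2 called 1 member, Col11a2, among 81 genes over all. At an unadjusted p under 0.05, 0 members were higher (5.8% of all tested genes) and 1 was lower (5.15%), again Col11a2. The groups did not overlap for 0 members higher (4.17% of all tested genes) and for 3 lower (4.07%), which were Col11a2, Fbln1 and Tnc. The 6 fibrillar collagens were all below 0, with Col1a1 at -0.42 (SE 0.33, adjusted p = 0.674) and Col3a1 at -0.33 (SE 0.38, adjusted p = 0.793), while Dcn was at 0.21 (SE 0.37, adjusted p = 0.869), Pdgfra at -0.03 (SE 0.32, adjusted p = 0.985) and Tcf21 at 0.49 (SE 0.45, adjusted p = 0.734). One library moved the count of members above 0, which was 3 without PGR_F 2 and 22 without PGR_F 1. Members lower with the PGR vector and not overlapping numbered 9 without Con_F 1 (5.66% of all tested genes) and 8 without PGR_F 2 (9.29%). The 14 endothelial markers were all below 0, with a median of -0.20, and 2 of 14 cardiomyocyte markers were above 0, with a median of -0.18.

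In males, 30 of 37 members were above 0 with a median of 0.16, against 50.1% of all tested genes. With edgeR 0 members and 0% of all tested genes passed the adjusted threshold, and DESeq2 and limma-voom called 0. At an unadjusted p under 0.05, 1 member was higher (3.53% of all tested genes) and 1 lower (3.94%). The higher one was Sparc, a collagen-binding counter-adhesive protein, with 11.1, 8.15 and 11.3 CPM in Con_M and 13.4, 17.3 and 13.2 in PGR_M, without overlap (log2 fold change 0.52, SE 0.21, adjusted p = 0.611). The lower one was Col11a2. The groups did not overlap for these 2 members, beside 7.2% of all tested genes higher and 8.48% lower. Col1a1 was at 0.21 (SE 0.36, adjusted p = 0.937), Col3a1 at 0.33 (SE 0.41, adjusted p = 0.898), Dcn at -0.04 (SE 0.40, adjusted p = 0.992), Pdgfra at 0.07 (SE 0.35, adjusted p = 0.977) and Tcf21 at 0.01 (SE 0.56, adjusted p = 0.998). Each male group held 1 low library, and the count of members above 0 was 16 without Con_M 2, 35 without PGR_M 1 and 30 without both, and 10 without PGR_M 2. Without PGR_M 1, 8 members higher with the PGR vector did not overlap (14.2% of all tested genes). The endothelial markers were above 0 in 14 of 14, with a median of 0.25, and the cardiomyocyte markers in 5 of 14, with a median of -0.10.

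Averaged over the sexes, 22 of 37 members were above 0 with a median of 0.03, against 51.0% of all tested genes. With edgeR 0 members passed, beside 0.0062% of all tested genes, and limma-voom called 0 members. DESeq2 called 1 member, Col11a2, among 334 genes over all, where edgeR called 1 gene. At an unadjusted p under 0.05, 0 members were higher (7.37% of all tested genes) and 1 lower (7.45%). Col1a1 was at -0.11 (SE 0.24, adjusted p = 0.876), Col3a1 at -0.0012 (SE 0.28, adjusted p = 0.999), Dcn at 0.09 (SE 0.27, adjusted p = 0.916), Pdgfra at 0.02 (SE 0.24, adjusted p = 0.977) and Tcf21 at 0.25 (SE 0.35, adjusted p = 0.789). The count above 0 was 9 without Con_M 2, 29 without PGR_M 1, 9 without PGR_F 2, 8 without PGR_M 2, and 23 without Con_M 2 and PGR_M 1 together.

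The vector effect was then compared between the sexes. The difference, female minus male, was above 0 for 6 of 37 members with a median of -0.34, against 51.0% of all tested genes. With edgeR 0 members and 0% of all tested genes passed, DESeq2 and limma-voom called 0 members, and at an unadjusted p under 0.05 0 members were higher (1.72% of all tested genes) and 0 lower (1.54%). Col1a1 was at -0.63 (SE 0.49), Col3a1 at -0.66 (SE 0.56), Dcn at 0.25 (SE 0.54), Pdgfra at -0.10 (SE 0.48) and Tcf21 at 0.47 (SE 0.71), each with an adjusted p of 1.00. The count above 0 was 1 without PGR_F 2, 2 without PGR_M 1, 12 without PGR_F 1, 13 without Con_M 2 and 15 without PGR_M 2, where the median was -0.05. It was 9 without Con_F 4 and 6 without Con_M 2 and PGR_M 1 together. The 14 endothelial markers were all below 0, with a median of -0.48.

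Col11a2 stood apart from the other members. It encodes the alpha2 chain of type XI collagen, best known from cartilage, and lies on chromosome 17 at 34039437 to 34066685 on the plus strand. In females it had 10.8, 7.42, 9.43 and 5.08 CPM under the control vector (8.18 ± 2.49, SD, n = 4) and 3.71, 4.30 and 4.54 under the PGR vector (4.19 ± 0.428, n = 3). In males it had 5.02, 5.87 and 4.08 CPM under the control vector (4.99 ± 0.896, n = 3) and 2.88, 2.97 and 3.24 under the PGR vector (3.03 ± 0.188, n = 3). Within each sex every PGR library was below every control library, although the highest PGR_F library was above the lowest Con_M one.

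With edgeR and the count filter, the difference in Col11a2 between the vectors did not pass the adjusted threshold. Its log2 fold change was -0.97 in females (SE 0.21, adjusted p = 0.188), -0.72 in males (SE 0.22, adjusted p = 0.602) and -0.84 averaged over the sexes (SE 0.15, adjusted p = 0.0748), with the same direction in both sexes. DESeq2 gave an adjusted p of 0.00507 in females, 0.249 in males and 6.2e-05 for the average. With edgeR and no count filter the average was -0.83 (adjusted p = 0.00573). The average stayed between -0.93 and -0.76 with any 1 library left out, and without Con_F 4 its edgeR adjusted p was 0.00544, against 0.0527 to 0.265 without any other library. Without Con_M 2 and PGR_M 1 together it was -0.76 (adjusted p = 0.265). Under the control vector Col11a2 was higher in females by 0.72 (SE 0.20, adjusted p = 0.197, or 0.0471 with DESeq2), and the groups overlapped. Without Con_F 4, the lowest Con_F library, this value was 0.88 (edgeR adjusted p = 0.0210), and the female vector difference was -1.13 (edgeR adjusted p = 0.0146). It was not low in Con_M 2, the lowest library for most members, where it had a higher CPM than in the other Con_M libraries. Of the 2 low libraries only PGR_M 1 was also the lowest for Col11a2.

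Only 4 of the 37 members, Smoc2, Fbln1, Timp3 and Col5a1, had a highest library under 2-fold above the lowest, a group formed after their values were seen. Smoc2 ranged from 37.9 CPM in Con_F 3 to 56.1 in PGR_M 2 and was higher in Con_M 2 (48.1 CPM) than in any of the Con_F libraries. Timp3, an inhibitor of matrix metalloproteinases, ranged from 14.0 to 26.9 CPM, and it lies wholly inside Syn3, a gene on the opposite strand. Col5a1 ranged from 14.8 to 29.5 CPM. Without these 4 genes the members summed to 92.6 CPM in Con_M 2 and 338 in PGR_F 2. These sums were 221 to 308 CPM in Con_F and 92.6 to 192 in Con_M. In PGR_F they were 159 to 338 CPM and in PGR_M 111 to 253. Of the 37 members, 18 overlapped no other gene, 6 overlapped a gene on the same strand, each with 0 counts in all libraries, and 14 one on the opposite strand. How reads in same-strand overlaps were assigned is not stated, so these 0 counts do not show whether the overlaps held reads.

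A wider list of 83 other matrix and fibroblast genes, of which 77 were tested, was described in the same way. In sum the list ranged 1.22-fold, from 3378 CPM in Con_M 2 to 4129 CPM in PGR_F 2. This is close to the 1.24-fold range of the cardiomyocyte markers, so its summed level is not read as a measure of other nuclei. Which nuclei the transcripts of this list came from was not tested. Under the control vector 61 of 77 were above 0 in females over males with a median of 0.28. At an unadjusted p under 0.05, 21 were higher and 1 lower (7.36% and 5.07% of all tested genes). The first by p were Col14a1, a fibril-associated collagen (1.26, SE 0.30, adjusted p = 0.132), Col18a1, a basement membrane collagen (0.71, adjusted p = 0.208), and Col27a1 (0.66, adjusted p = 0.208), and the lower one was the proteoglycan Ogn (-0.40, adjusted p = 0.233). Under the PGR vector 56 of 77 were above 0 with a median of 0.14, led by the protease inhibitor Timp2 (0.35, adjusted p = 0.512), Abi3bp (0.45, adjusted p = 0.556) and Col27a1 (0.56, adjusted p = 0.556), with the collagen-binding integrin Itga1 lower (-0.38, adjusted p = 0.648).

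For the vector itself, the wider list had 31 of 77 genes above 0 in females (median -0.08), 52 in males (median 0.14) and 46 averaged over the sexes (median 0.04), and 0 passed the adjusted threshold with edgeR. At an unadjusted p under 0.05, 4 were higher and 11 lower in females (5.8% and 5.15% of all tested genes), and 3 were higher and 4 lower in males (3.53% and 3.94%). P4ha1 and P4ha2, catalytic subunits of the prolyl hydroxylases that stabilise collagen, had the smallest adjusted p of the list. P4ha2 had 82.9 to 99.7 CPM in Con_F and 63.0 to 80.7 in PGR_F, and 90.5 to 100.3 in Con_M and 68.2 to 81.8 in PGR_M, so that the vectors did not overlap in either sex. Its averaged log2 fold change was -0.35 (SE 0.07, adjusted p = 0.0882), and that of P4ha1, whose libraries overlapped between the vectors in females but not in males, was -0.53 (SE 0.12, adjusted p = 0.0978). The fibronectin receptor subunit Itga5 was at -0.23 (SE 0.06, adjusted p = 0.143). Higher on average were Ogn (0.31, adjusted p = 0.174), the lysyl hydroxylase Plod2 (0.23, adjusted p = 0.242) and the Wnt inhibitor Wif1 (0.41, adjusted p = 0.263). Ogn had 15.1 to 23.3 CPM in Con_F and 22.9 to 30.6 in PGR_F, a female log2 fold change of 0.59 (SE 0.13, adjusted p = 0.194), while in males it had 23.6 to 25.7 and 24.1 to 26.4 CPM. In females the proteoglycan Podn was at -0.50 (SE 0.19, adjusted p = 0.388), and in males the microfibril gene Fbn2 was at 0.65 (SE 0.24, adjusted p = 0.611), the tendon transcription factor Scx at 1.07 (SE 0.45, adjusted p = 0.611) and Itga1 at 0.37 (SE 0.16, adjusted p = 0.640). In the difference between the sexes 1 of the 77 was higher and 3 were lower at an unadjusted p under 0.05 (1.72% and 1.54% of all tested genes). These were Ogn at 0.56, Fbn2 at -0.80, Col18a1 at -0.72 and the procollagen protease Bmp1 at -0.27, each with an adjusted p of 1.00.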

How the data were processed

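The deposited values are unnormalized counts of reads, with a column for each library. Per the submitters' processing notes these came from a workflow that names STAR (2.5.3a) and featureCounts (1.5.0) as tools, and GRCm38 and mm10 as genome builds, without roles. Per the labels' protocols, RNA was isolated from sorted nuclei with TRIzol, ribosomal RNA was depleted and strand-aware libraries were made. Start, end and length columns are given per the file headers, and in all 55536 genes the length equalled end minus start plus 1, so intronic reads count. The name of the deposited table marks reverse-stranded counting of read pairs. How reads in genes overlapping on the same strand were assigned is not stated.

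The tests used R 4.3.3 and edgeR 4.0.16: filterByExpr (16125 genes kept), TMM factors, 4 group means fitted to all 13 libraries, and quasi-likelihood tests of 6 contrasts, with Benjamini-Hochberg adjustment over all genes and a threshold of 0.05. DESeq2 1.42.0 and limma 3.58.1 were alternatives. Log2 CPM used a prior count of 2, and pairs were tested with SciPy 1.17.1. Scripts were tested on simulated data. No 2 libraries of a group agreed within sampling noise (smallest chi-square per degree of freedom 27.4). The labels do not say that each library came from separate animals, so p-values measure the spread between libraries. Exons were taken from GENCODE M21 and promoters from RefSeq.

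Members and lists were chosen with earlier results of these data known. Levels are given for the members, and fold changes for those with an unadjusted p under 0.05 and always for Col1a1, Col3a1, Dcn, Pdgfra and Tcf21; of the wider list, up to 3 higher and 3 lower genes per contrast with the smallest p. Smoc2, Eln, Timp3, Col5a1 and the left-out libraries were singled out after values were seen. Alternatives were other scalings, no count filter, the smaller deposited table, only the groups compared, a replicate block and each library left out. RefSeq windows were not matched for Col1a1, Col5a2, Dcn, Lum, Fn1, Eln, Smoc2, Comp, Thbs1, Mfap4, Mfap5, Lox, Loxl1, Mgp and Meox1.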

Additional observations from a re-analysis of the deposited data

Results flagged for a closer look

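In the control females, Dpt had 2.51 CPM in Con_F 1, below the other libraries of the group, which lay between 3.28 and 3.38 CPM. The gap to the nearest library, divided by the group's range, was 0.880, above Dixon's critical value for 4 libraries. All 37 members were examined in this way in the 1 group of 4 libraries, 1 exceeded it, and chance alone gives about 1 in 20. Groups of 3 were not examined.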

How the results depend on the processing

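Alternatives were computed for the counts of genes and members called, the members above 0 and their median, the members named by a fold change under the fixed rule and the 8 correlations, not for the wider list or the marker lists, with the left-out pair of libraries and the members' counts and medians added after the data were seen. The count of genes called over all genes moved most. With no count filter it was 25 for the vector in females, 12 in males, 146 averaged over the sexes, 1 for the difference between the sexes, 131 for sex under the control vector and 51 under the PGR vector. With DESeq2 the same counts were 81, 29, 334, 1, 224 and 80. With only the groups compared they were 1 in males, 17 for sex under the control vector and 56 under the PGR vector, and without Con_M 2 and PGR_M 1 they were 16 and 12 for the sex comparisons. Members called were 1 for the averaged vector (Col11a2) and 1 for sex under the control vector (Fbln1) with no filter, and 1 (females), 1 (averaged) and 2 (sex under the control vector) with DESeq2; the cause was not tested.

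The direction of small log2 fold changes turned in some settings. Col3a1, averaged, was 0.0078 with upper-quartile factors, 0.0070 with no filter and 0.0017 with the smaller table. With limma-voom Pdgfra was 0.017 in females, -0.015 in males and 0.033 for the difference, and Tcf21 was -0.19 in males. Without both low libraries Dcn was 0.048 in males and Pdgfra, averaged, -0.0024. The correlation of Dcn with Pcm1 was 0.048 on deviations from group means. The replicate numbers did not pair the libraries (r of same-numbered deviations -0.25 to 0.25). With the replicate block, genes called for sex under the PGR vector numbered 35, Pdgfra was -0.014 and Tcf21 -0.084 in males, and Pdgfra, averaged, was -0.026, while every member stayed uncalled.

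With any 1 library left out, genes called ranged from 0 to 20 (females), 0 to 3 (males), 1 to 338 (averaged), 14 to 99 (sex, control) and 10 to 44 (sex, PGR). Members called ranged from 0 to 1 in females, 0 to 1 averaged and 0 to 1 for sex under the control vector. Members above 0 ranged from 3 to 22 in females, 10 to 35 in males, 8 to 29 averaged and 1 to 15 for the difference. In females Pdgfra ranged from -0.20 to 0.18 and Tcf21 from -0.15 to 0.75. In males Col1a1 ranged from -0.12 to 0.42, Col3a1 from -0.098 to 0.61, Dcn from -0.44 to 0.28, Pdgfra from -0.32 to 0.34 and Tcf21 from -0.31 to 0.46. Averaged, Col3a1 ranged from -0.22 to 0.14, Dcn from -0.12 to 0.25, Pdgfra from -0.17 to 0.16 and Tcf21 from -0.065 to 0.47. For the difference Dcn ranged from -0.065 to 0.65, Pdgfra from -0.37 to 0.29 and Tcf21 from -0.17 to 0.79. Depth limits Tcf21, Lox and Tnc, with 4 to 29, 1 to 15 and 3 to 23 counts per library.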
